A study of Bos taurus with 6 samples.

Results

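Paired H3K4me3 summits are places where ChIP-seq of bovine embryonic stem cells gave 2 peaks of this mark close together in each of 2 cell lines. They were found by pooling the H3K4me3 summits of lines A and B on the 29 autosomes, chaining neighbouring summits with gaps of at most 5000 bases, and keeping the chains with exactly 2 summits of each line. Of 17446 chains, 1491 (8.55%) were such pairs. Applied to line B alone the rule gave 2271 pairs and to line A alone 2306. The 1491 pairs of both lines hold 5964 of the 40927 pooled autosomal summits (14.6%). The remaining chains include 12104 solitary sites, with exactly 1 summit of each line, and 424 chains with at least 3 summits of each line, and these serve as the points of comparison.

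The study profiled H3K4me3 and H3K27me3 in 2 independent lines derived from bovine blastocysts, both at passage 12 and cultured with human FGF2 and the WNT pathway inhibitor IWR1 on mouse embryonic fibroblasts. Both lines and both marks share this culture and the removal of the feeder cells with magnetic beads before chromatin was made. Each mark has 1 list of peak summits per line (n = 2 lines), 4 lists in all, and the 2 input libraries were not analysed here. With 1 list per mark and line there is no replicate within a line, and an exact permutation over 2 lines cannot give a p below 0.5, so no test between kinds of site was made and the values of both lines are given side by side.

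Trimethylation of lysine 4 of histone H3 is placed around the starts of genes by SET1 and MLL complexes, and is found at active promoters and at promoters held ready. It sits on the nucleosomes that flank a start, while the start itself is poor in nucleosomes, so a promoter can carry the mark on either side. Trimethylation of lysine 27 is the mark of Polycomb repressive complex 2, and promoters of developmental genes in pluripotent cells often carry both marks, a state known as bivalent. A peak summit is the base with the most signal in a peak, and each summit here belongs to a peak of its own.

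The lines are written A and B from here on. The lists hold no read counts and no peak widths, so depth is unknown. They hold 19966 autosomal H3K4me3 summits in A and 20961 in B, and 17664 and 13083 H3K27me3 summits. Each summit has a score, on a −log10 scale of the peak caller's p or q, with a median over the whole H3K4me3 list of 36.6 in A and 56.6 in B. A score depends on depth, so scores are set against each other within a list only. Positions are in the UMD3.1 assembly, counted from 1. Which genes lie at them was not analysed here.

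The members were chosen by the positions and number of H3K4me3 summits in both lines. That both lines have 2 summits, and that the summits lie within a few kilobases, is therefore given by the rule. The scores and H3K27me3 did not enter it, though a summit had to be called in each list. At the edge of the rule, 35 pairs held a gap over 4750 bases, from 4751 to 4999. Just outside lay 42 neighbouring solitary sites separated by 5005 to 5245 bases. On the count of summits, 594 chains had 2 summits in A and 1 in B, and 573 had 1 in A and 2 in B. In these near misses the weaker of the 2 summits had a median score of 8.43 in A and 7.45 in B, and the stronger 49.6 and 60.5.

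The summits of a pair sat at nearly the same places in both lines. In 1482 of 1491 pairs there was 1 summit of each line on either side, and in 9 pairs both summits of a line lay before those of the other line. In 1447 pairs each summit had its counterpart in the other line within 1000 bases, and in 44 at least 1 did not. The median offset between lines was 46 bases for the summit at the lower coordinate and 49 bases for the summit at the higher coordinate. Solitary sites had a median offset of 53 bases, so paired summits were placed about as precisely as single ones.

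The distance between the summits of a pair had a median of 1754 bases in A and 1771 bases in B. The quartiles were 1057.5 and 3126.5 bases in A and 1074 and 3099.5 bases in B, and the extremes 384 and 5848 bases in A and 486 and 5882 bases in B. Close pairs predominated. Taking the mean over lines, 310 pairs were under 1000 bases apart, 327 from 1000 to under 1500 bases and 196 from 1500 to under 2000 bases, which makes 833 pairs (55.9%, 95% Wilson interval 53.3 to 58.4%) under 2000 bases. Above that the number per step of 500 bases fell slowly, from 148 pairs between 2000 and 2500 bases to 81 between 4500 and 5000 bases.

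Short distances were also the most frequent among all autosomal H3K4me3 summits, counted without the chain rule and with the pairs included. Of all intervals between neighbouring summits of a list, 489 in A and 468 in B fell between 750 and 1000 bases, the fullest step of 250 bases in both lines. The pairs made up 209 and 205 of these, so the count is not separate from that of the pairs. In steps of the same width from 4000 to under 5000 bases the counts were lower, from 86 to 112 in A and from 103 to 129 in B. The whole stretch from 4000 to under 5000 bases held 406 intervals in A and 483 in B. The stretch of equal width from 5000 to under 6000 bases held 360 and 431. The number of neighbours thus passed the limit of 5000 bases with no break, and that limit separates pairs from solitary neighbours without a gap in the data. Summits nearer than 304 bases in A and 409 bases in B were not present in the lists.

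**Figure D1:**
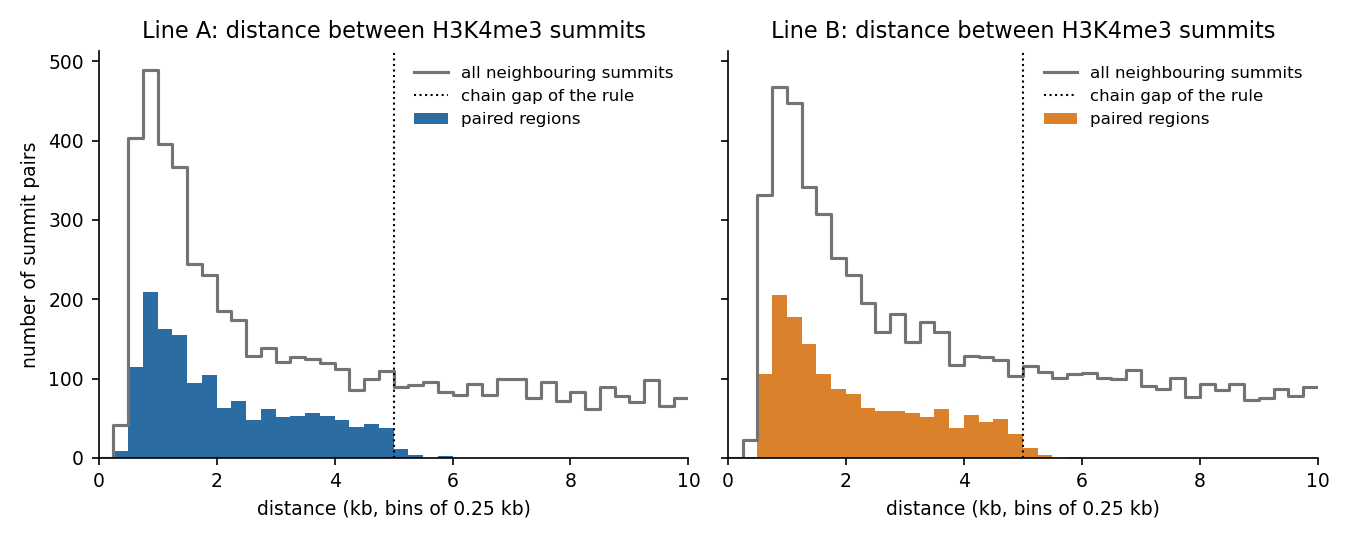
Number of neighbouring H3K4me3 summits (vertical axis) by the distance between them in kb (horizontal axis, bins of 0.25 kb) in line A at left and line B at right. Filled bars are the 1491 pairs, the grey line all neighbouring autosomal summits of the list, pairs included, and the dotted line the chain gap of 5 kb. The fullest bin of the grey line is 0.75 to 1 kb in both lines, with 489 and 468 intervals.

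The distance was nearly the same in both lines. It differed between lines by a median of 81 bases, with quartiles of 34 and 179 bases, and by at most 100 bases in 847 pairs (56.8%, interval 54.3 to 59.3%). Across the 1491 pairs the Pearson correlation of the distance in A with that in B was 0.962. The rule holds both distances in the same short range, and the pairs share the 2 libraries, so this coefficient is a description. The difference reached 3449 bases in the pair that differed most.

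The widest pairs show what lies at the upper end. On chromosome 5 at 56018662 to 56024553 the summits were 5008 bases apart in A and 5882 bases in B, and the lower-coordinate summits of the lines were offset by 883 bases. On chromosome 7 at 17017512 to 17023421 the distance was 5829 bases in A and 4915 bases in B, with an offset of 994 bases at the higher coordinate. On chromosome 10 at 70791785 to 70797633 it was 5848 and 4508 bases. The fourth, on chromosome 20 at 23958895 to 23964295, spanned 5339 and 4947 bases. Such pairs span more than the chain gap in at least 1 line because a summit of the other line bridges the gap, and their lines differ in distance by far more than the median pair.

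The closest pairs differed less between lines. They were picked by a small mean distance over lines, which leaves little room to differ, so this follows in part from the choice. On chromosome 22 at 49207164 to 49207712 the summits were 483 bases apart in A and 540 in B, with offsets between lines of 8 and 65 bases. Another pair of the same chromosome, at 56589872 to 56590401, had distances of 502 and 521 bases. On chromosome 11 at 9107557 to 9108139 they were 467 and 561 bases, and on chromosome 16 at 53115202 to 53115766 they were 465 and 564 bases. None of the 4 had an H3K27me3 summit of either line within 1 kb, the nearest being 46359 bases away. The same absence held for 1017 of all 1491 pairs (68.2%), so it does not mark these 4 out.

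Within a pair the peaks were unequal. The stronger summit had a median score of 57.0 in A and 91.8 in B, at percentiles 67.7 and 67.1 of their lists. The weaker had 18.3 and 30.7, at percentiles 30.3 and 33.2. Solitary sites lay between these, at 48.5 and 81.4, at percentiles 60.6 and 62.2. A stronger and a weaker summit are the higher and lower of 2 draws, so some spread around the solitary value is part of their definition. Chains with at least 3 summits of each line had a strongest summit with a median of 52.0 and 85.1, close to the stronger summit of a pair.

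The balance, the weaker score as a percent of the stronger, had a median of 44.3% in A and 42.2% in B. Its quartiles were 24.5 and 67.0% in A and 23.0 and 67.7% in B. Below 20% lay 291 pairs in A and 322 in B, and at 80% or more 206 and 213. In 772 pairs of neighbouring solitary sites, separated by at most 10 kb, the balance was higher, at 50.5% in A and 49.1% in B. Across pairs the scores of the 2 summits were nearly unrelated, with a Spearman correlation of 0.074 in A and 0.064 in B, against 0.183 in both lines for the neighbouring solitary sites. Taking only the summits that score over their list's median left 349 pairs, with a median balance of 71.2% as a mean over lines. The coefficients run across sites of the same library and are descriptions.

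The stronger side was mostly the same in both lines. It agreed in 1275 of 1491 pairs (85.5%, interval 83.6 to 87.2%), and in 662 of the 772 neighbouring solitary pairs (85.8%, interval 83.1 to 88.0%), so the paired peaks kept their order between lines as often as separate sites did. The side had no preference along the chromosome. The lower-coordinate summit was stronger in 762 pairs (51.1%) in A and 758 (50.8%) in B. The log2 ratio of the 2 scores correlated between lines with a Pearson coefficient of 0.841.

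How often the side agreed depended on the balance. Among pairs with a balance below 20% in A, 97.6% had the same stronger side in B, and among those with 80% or more, 58.7%. Sorted by the balance in B, the shares were 94.4 and 58.2%. A set of 199 pairs (13.3%) had a balance below 20% in both lines with the same stronger side, which amounts to a main peak with a minor companion. At the other end, 66 pairs (4.43%) had a balance of at least 80% in both lines.

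**Figure D2:**
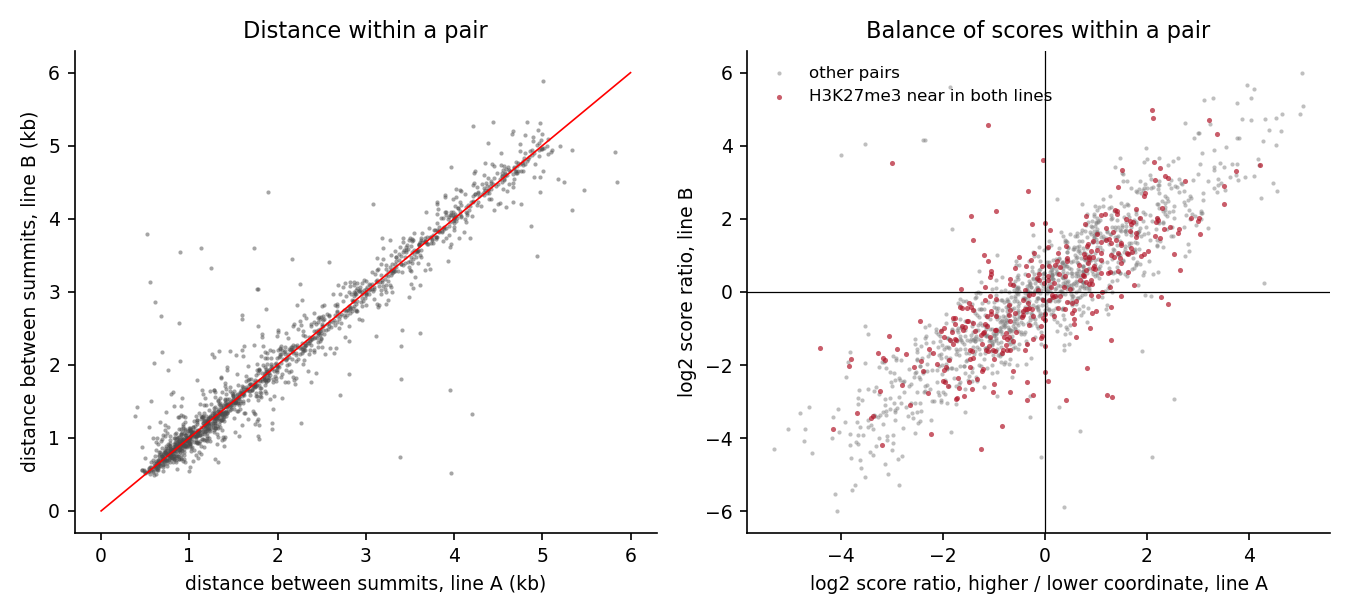
Left, distance between the summits of each of the 1491 pairs in kb for line A (horizontal) and B (vertical), with the line of equality. Right, log2 ratio of the score at the higher coordinate to that at the lower coordinate for line A (horizontal) and B (vertical), with the 329 pairs that had H3K27me3 within 1 kb in both lines in red. The upper right and lower left sectors hold the pairs with the same stronger side in both lines, 1275 in all.

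The least balanced pairs that kept their side had a low-scoring companion, from 3.3 to 12.0 over these 4 pairs and both lines. On chromosome 20 at 38025986 to 38026961 the scores in A were 3.8 and 127.2, and in B 4.8 and 162.5. On chromosome 4 at 94563154 to 94565532 they were 3.4 and 112.5 in A and 4.2 and 269.5 in B. On chromosome 18 at 19651702 to 19654102 the weaker peak had 3.1% of the stronger score in A and 3.4% in B. On chromosome 23 at 10095743 to 10096742 it had 4.0 and 3.4%. In all 4 the minor peak was at the lower coordinate, and none had H3K27me3 within 1 kb in either line, like 68.2% of all pairs.

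The most balanced pairs were of middling score. On chromosome 6 at 43566544 to 43567915 both summits scored 18.3 in A, and in B they scored 31.0 and 32.6. On chromosome 7 at 32312133 to 32312914 the scores were 40.3 and 41.2 in A and 66.3 and 65.0 in B, so the nominally stronger side changed. On chromosome 21 at 55988300 to 55990883 they were 34.6 and 35.7 in A and 37.4 and 37.7 in B. On chromosome 16 at 59828379 to 59829207 they were 21.7 and 22.8, and 34.2 and 34.7. These 4 pairs, too, had no H3K27me3 summit within 1 kb, which held for 68.2% of all pairs.

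The pairs in which both peaks were strong include 2 that stand far apart from the rest. On chromosome 10 at 87893111 to 87895496 the scores were 1581 and 677 in A and 4689 and 2162 in B. On chromosome 3 at 91884913 to 91886388 they were 1289 and 434 in A and 4806 and 2494 in B. These are the only 2 pairs with both scores of line A over 400, and the highest weaker score in A among all other pairs was 112.9. Both had H3K27me3 summits within 1 kb of each H3K4me3 summit in both lines. On chromosome 10 the nearest lay 27 and 198 bases from the H3K4me3 summits in A and 21 and 380 bases in B. On chromosome 3 they lay 5 and 7 bases away in A and 9 and 11 bases in B, and the H3K4me3 summits of the lines were offset by only 2 and 4 bases. The highest H3K27me3 score there was 2460.5 in A and 81.8 in B, and on chromosome 10 it was 2197 and 142.4, against a median over the H3K27me3 list of 9.31 in A and 9.49 in B. Among autosomal H3K27me3 summits of B both scores lay between the 75th and 90th percentiles, 68.9 and 217.4. In A both lay above the 90th percentile of 198.6. The strong signal of H3K4me3 in both lines and of H3K27me3 in A was measured, and its source was not tested.

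The next strong pairs carried no H3K27me3 nearby, as was true of 68.2% of all pairs. On chromosome 13 at 54942132 to 54944958 the scores were 132.7 and 106.7 in A and 264.1 and 202.9 in B. On the same chromosome at 46679187 to 46683284 they were 124.9 and 112.9 in A and 255.2 and 181.6 in B. In the first pair the nearest H3K27me3 summit was 10789 bases away in A and 10984 bases in B.

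H3K27me3 was about as frequent at paired summits as at solitary ones, without matching them on H3K4me3 score. An H3K27me3 summit of the same line lay within 1 kb of 624 of 2982 paired summits in A (20.9%, interval 19.5 to 22.4%) and 537 in B (18.0%, interval 16.7 to 19.4%). Over all autosomal H3K4me3 summits the shares were 24.2% in A and 19.8% in B. Solitary sites had 21.8% (interval 21.0 to 22.5%) and 17.3% (interval 16.6 to 17.9%), above the pairs in A and below them in B. Summits in chains of at least 3 per line had 36.5% and 34.5%, above the pairs in both lines. The difference between paired and solitary summits was −0.84 percentage points in A and 0.75 in B, so the lines did not share a direction, while longer chains had more in both. The kinds of summit differ in score, with which H3K27me3 went, as described below. Weaker paired summits had median percentiles of 30.3 in A and 33.2 in B, stronger ones 67.7 and 67.1 and solitary ones 60.6 and 62.2. With only the summits that score over their list's median the difference was −6.78 and −4.89 percentage points, and with H3K27me3 sought within 2000 bases 2.44 and 4.11.

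The stronger and the weaker peak had H3K27me3 near at similar rates. The share was 20.6% for stronger and 21.3% for weaker summits in A, and 18.2% and 17.8% in B, with intervals that overlap. Since the summits of close pairs share a window, pairs more than 2000 bases apart show this best. There H3K27me3 lay near the stronger summit alone in 63 of 641 pairs and near the weaker alone in 74 in A. In B the counts were 62 and 56 of 665. The order of the 2 counts differed between the lines. Both lines had the higher share at the weaker summit when only summits scoring over their list's median were paired, by 2.87 percentage points in A and 2.58 in B, and with a chain gap of 10000 bases, by 2.23 and 1.18. With H3K4me3 scores of at least 5 both had the lower share there, at −0.56 and −0.49.

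Counted by pair, H3K27me3 lay near either summit in 429 pairs in A (28.8%) and 374 in B (25.1%). A total of 329 pairs (22.1%, interval 20.0 to 24.2%) had it in both lines, 100 in A alone, 45 in B alone and 1017 (68.2%) in neither. The share with it in both lines was 17.7% over all autosomal chains with summits of both lines, 15.3% over solitary sites and 46.9% over chains with at least 3 summits of each line. A pair offers 2 summits to find it at, which raises the share per pair over that per solitary site. Of the 329 pairs, 236 (71.7%, interval 66.6 to 76.3%) had it at the same summit or summits in both lines. In 126 of the 236 it lay near both summits in both lines, and in close pairs 1 H3K27me3 summit can lie near both. Seeking only H3K27me3 summits that score over their list's median left 13.7% of pairs with it in both lines, and pairing only H3K4me3 summits above their median left 5.73%. Among the 130 in which it lay near 1 summit alone in each line, it was the same summit in 110.

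Whether a pair carried H3K27me3 went with the strength of its H3K4me3. In the quintile of pairs with the lowest stronger score, 55.2% in A (interval 49.5 to 60.7%) and 50.2% in B (interval 44.5 to 55.8%) had H3K27me3 near either summit. The share dropped with each quintile, to 7.77% (interval 5.23 to 11.4%) and 5.39% (interval 3.34 to 8.57%) in the highest. Sorted by the weaker score, it went from 41.1% to 9.15% in A and from 41.1% to 7.72% in B. Pairs with H3K27me3 in both lines had a median stronger score of 34.2 in A and 52.6 in B, against 66.9 and 112.5 for pairs with it in neither line. Solitary sites showed the same order, with a median score of 30.2 with H3K27me3 and 54.7 without it in A, and 49.1 and 90.9 in B, so the relation is not particular to pairs.

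The balance went with H3K27me3 much less. Its lowest quintile had the lowest share, 19.4% in A and 18.7% in B, and the other quintiles lay between 24.5 and 36.6% in A and between 22.5 and 29.5% in B, in no common order. The least balanced quintile also had the highest stronger scores, with a median of 79.2 in A and 129.2 in B, against 41.5 and 72.7 in the most balanced. Its part in the lower share was not tested. The median balance was 44.8 and 43.6% in pairs with H3K27me3 in both lines and 44.2 and 40.3% in pairs with it in neither. The same side was stronger in both lines in 80.2% of the former (interval 75.6 to 84.2%) and 88.1% of the latter.

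**Figure D3:**
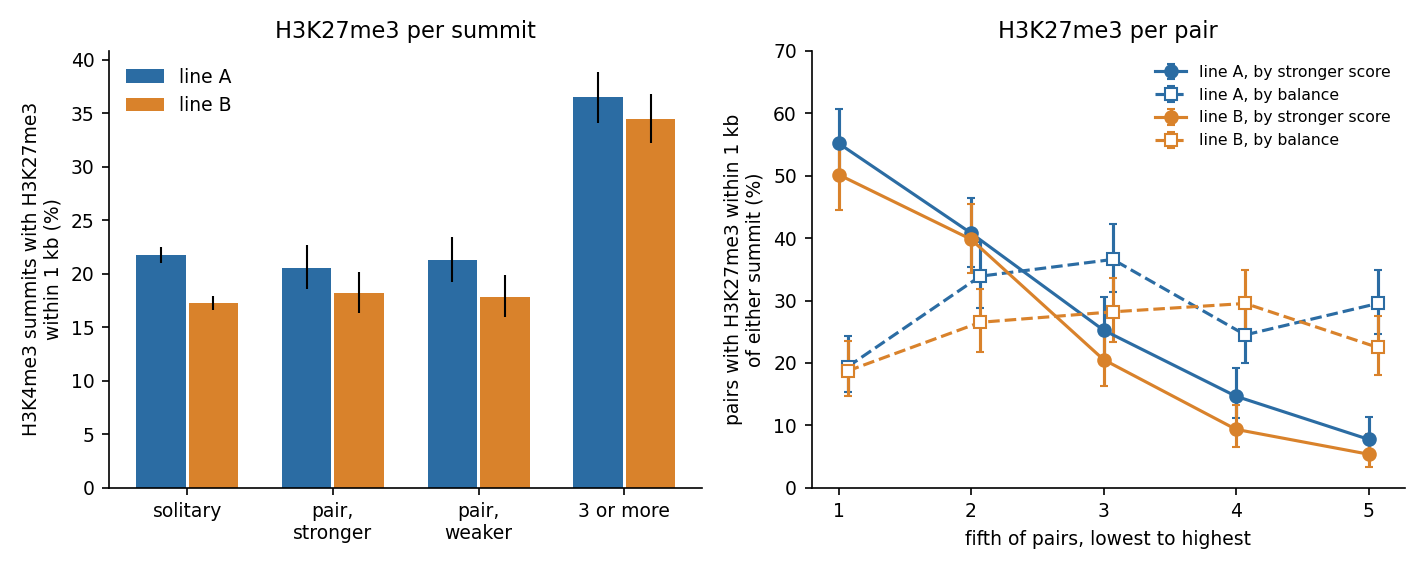
Left, percent of H3K4me3 summits with an H3K27me3 summit of the same line within 1 kb, at solitary sites, at the stronger and weaker summits of pairs and in chains with at least 3 summits of each line. Right, percent of pairs with H3K27me3 near either summit by quintile of the stronger score (solid lines, circles) and of the balance (dashed lines, squares), from the lowest to the highest. Bars and lines are lines A (blue) and B (orange) and error bars are 95% Wilson intervals. By stronger score the share goes from 55.2 to 7.77% in A and from 50.2 to 5.39% in B.

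The distance between the summits went with where H3K27me3 lay. For each pair, H3K27me3 summits between the H3K4me3 summits were counted against those outside, in 2 flanks that together have the same width and the same distances to the nearest H3K4me3 summit. Over all pairs 44.5% lay between in A (interval 40.9 to 48.2%) and 46.9% in B (interval 42.9 to 51.0%). In pairs under 1500 bases apart, 56 lay between and 142 outside in A, and 44 between and 102 outside in B. That puts 28.3% between in these close pairs in A (interval 22.5 to 34.9%) and 30.1% in B (interval 23.3 to 38.0%). Even placing would give equal counts, which is not a neutral expectation here. Pairs were chosen for separate H3K4me3 summits, which can select for low signal between them. Whether this lowered H3K27me3 calls there was not tested. Neighbouring H3K27me3 summits of a list were at least 225 bases apart in A and 298 in B. That limit can weigh more on a short inner stretch than on 2 flanks. The intervals do not allow for either. The classes of distance were chosen after these values were seen.

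This asymmetry was found in both classes of close pairs. Under 1000 bases the counts were 25 between and 66 outside in A and 15 and 46 in B. From 1000 to under 1500 bases they were 31 and 76 in A and 29 and 56 in B. In wider classes the order of the counts changed between lines or lay close to even. From 1500 to under 2000 bases 43 lay between and 38 outside in A, and 40 and 45 in B. From 2000 to under 3000 bases they were 75 and 83 in A and 70 and 52 in B. At 3000 bases or more the counts were 142 and 131 in A and 118 and 109 in B.

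Set per length, close pairs under 1500 bases had 8.56 H3K27me3 summits per 100 kb between their summits and 21.7 outside in A, and 6.85 and 15.9 in B. Solitary sites had 17.8 per 100 kb within 500 bases in A and 13.7 in B. The stretch between close summits was thus below the flanks of a solitary site, and the outer flanks were above them, though the flanks searched differ in width. Counted over the 2 outer sides of all pairs, H3K27me3 showed no preference for the side of the stronger peak, with 199 summits there and 195 beside the weaker in A, and 159 and 149 in B. Reading the H3K27me3 list of the other line at the same pairs gave 28.9% between, as a mean over lines, against 29.2% with the list of the same line. Both readings use the same 2 lists, and the H3K4me3 summits of the lines lie close together, so the likeness is no separate support.

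**Figure D4:**
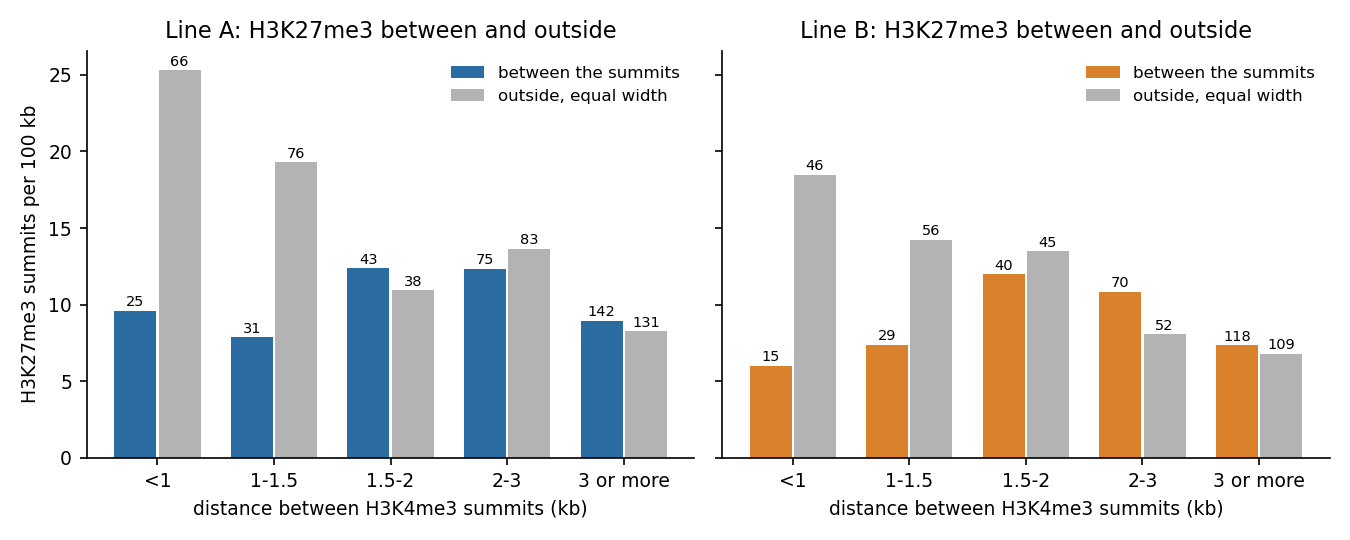
H3K27me3 summits per 100 kb (vertical axis) between the summits of a pair (coloured) and in outer flanks of equal total width (grey), by the distance between the H3K4me3 summits in kb, in line A at left and line B at right. Numbers over the bars are the H3K27me3 summits counted. Below 1.5 kb the grey bars are higher in both lines, and above it neither kind is higher in both lines until 3 kb, where the bars are close. From 2 to 3 kb in line B the coloured bar is higher, with 70 against 52 summits.

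The share of pairs with H3K27me3 in both lines did not move steadily with distance. It was 17.1% under 1000 bases, 21.1% from 1000 to under 1500 bases, 27.04% from 1500 to under 2000 bases, 20.9% from 2000 to under 3000 bases, 21.9% from 3000 to under 4000 bases and 28.6% at 4000 bases or more. The interval of the closest class was 13.3 to 21.7% and that of the widest 22.6 to 35.4%. Windows around close summits overlap, so a close pair searches fewer bases than a wide one. Per summit the closest class had 20.0% in A and 17.3% in B, and the widest 23.3 and 19.6%.

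Summits farther apart than their windows could carry the mark at one or both. In pairs more than 2000 bases apart with H3K27me3 near either summit, 34.1% in A (interval 28.0 to 40.8%) and 34.8% in B (interval 28.2 to 42.0%) had it near both. In neighbouring solitary sites it was 26.3% (interval 21.2 to 32.2%) and 24.3% (interval 18.9 to 30.6%). The intervals of the 2 kinds overlap in both lines. In pairs at least 4000 bases apart the share was 38.7% in A and 21.3% in B, on either side of the solitary value.

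Of the 6 pairs named for the most H3K27me3, 5 overlapped a cluster of that mark, with at least 5 summits in each line. On chromosome 4 at 41475333 to 41480313, 5 H3K27me3 summits of line A and 4 of line B lay in the region, with scores up to 2884 and 2587. On chromosome 1 at 145300145 to 145302332 there were 3 in each line with scores up to 3423 and 3643, and the H3K4me3 summits of the lines were offset by 18 and 1 bases. There the H3K4me3 scores were 16.1 and 39.4 in A and 8.8 and 3.5 in B, so the stronger side differed. Both lie in clusters in which the H3K27me3 summits of the lines coincide within a median of 30 bases.

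In the other 4 the H3K27me3 scores were far lower. On chromosome 9 at 33942665 to 33947780 there were 4 and 5 summits, with scores up to 28.9 in A and 19.5 in B. On chromosome 1 at 110286092 to 110289409 there were 4 and 3, with scores up to 19.1 and 11.5. On chromosome 2 at 20807340 to 20811660 there were 3 in each line, with scores up to 42.3 and 39.6, and on chromosome 3 at 22851846 to 22854843 there were 4 and 3, with scores up to 15.8 and 7.1. Such regions are rare among the pairs. In the line with fewer, 1139 pairs (76.4%) had no H3K27me3 summit within the region, 224 had 1, 107 had 2, and 21 had 3 or more.

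Few pairs touched the broad H3K27me3 clusters. Of the 1491, 44 (2.95%) overlapped such a cluster, against 1.20% of solitary sites and 15.3% of chains with at least 3 summits of each line. Chains with more summits span more bases and so have more room to overlap, which was not allowed for. Among the 329 pairs with H3K27me3 in both lines, 39 did. Without the 44 pairs the share of paired summits with H3K27me3 was 19.1% in A and 16.3% in B. Most pairs with H3K27me3 in both lines thus lay outside such clusters.

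Pairs were found on all 29 autosomes. As a share of chains they ranged from 5.64% on chromosome 6 to 11.4% on chromosome 26, with a median of 8.43% over chromosomes. Chromosome 19 had the most, 102, followed by chromosome 7 with 101. The nearest other chain lay a median of 26061 bases from a pair and 28443 bases from a solitary site, so pairs stood nearly as isolated as single sites.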

How the data were processed

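Peaks came from 1 H3K4me3 and 1 H3K27me3 ChIP-seq library per line. Per the submitters' processing notes, BWA aligned the reads to UMD3.1 and MACS2 called the peaks, and no version is named. Summits are 1 base long, a deposited unit of kind "other" (positions). Column 5 was deposited as a −log10 value of p or q; which of them was not given in the sources used here. Names of peaks hold the tag of paired-end calling, per the files, and their numbering gives 1 summit per peak. Use of the inputs in peak calling and depth are not given in the sources used here.

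Chains, distances and shares were computed with Python 3.11.15, numpy 2.4.6, pandas 2.3.3 and scipy 1.17.1, and the code was run on simulated lists with planted pairs. The simulated sites lay far apart and every summit was in both lines. That run therefore checked the code and not the effect of missed summits or of gaps near the limit. H3K27me3 counted as near within 1000 bases. Intervals are 95% Wilson intervals and cover counting error only. Those per summit treat summits as independent, which the 2 summits of a pair are not. Members, lists and comparisons were chosen with earlier results of these data known. Named are the 4 widest, 4 closest, 4 with both peaks strong, 4 least and 4 most balanced pairs and the 6 with most H3K27me3. Ties were taken in order of position. No sequence or annotation of UMD3.1 was used. Alternatives changed the chain gap, score filters, the H3K27me3 distance, the measure of balance and the lines used.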

Additional observations from a re-analysis of the deposited data

Results flagged for a closer look

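On the X chromosome, left out above, the same rule gave 57 paired chains of 692 (8.24%). They are listed because the X took no part in the comparisons, and no control list was analysed to set them against. H3K27me3 lay near either summit in 41 of them in line A (71.9%, interval 59.2 to 81.9%) and 40 in line B (70.2%, interval 57.3 to 80.5%), and in both lines in 37 (64.9%, interval 51.9 to 76.0%), against 22.1% of autosomal pairs. Per summit the share was 64.0% in line A and 57.9% in line B at X pairs and 74.7% and 71.7% at solitary X sites. The summits were a median of 1274 and 1351 bases apart, the balance was 55.7 and 45.9%, and the stronger side was the same in 48 pairs (84.2%).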

How the results depend on the processing

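Each result was recomputed under the alternatives, 73 values in all, of which 37 stayed within 1.5 times of a count, 1 SD between lines or the 95% interval of the main value, and 36 moved further. The SD rests on 2 lines. For distance and balance it is small, so small moves count. For the 2 differences in H3K27me3 it is larger than the main value, so a change of sign can count as staying. Paired minus solitary was −0.043 percentage points with an SD of 1.12, and weaker minus stronger 0.168 with an SD of 0.711. The alternatives for placement between or outside, the pairs matched within 1000 bases and the pairs at least 2000 bases apart were chosen after seeing the data. With a chain gap of at most 2000 bases the median distance was 1194.5 bases, the median balance 40.9% and the difference between paired and solitary summits 1.16 percentage points. With 3000 bases the distance was 1362 bases and 30.8% of H3K27me3 lay between the summits of close pairs. With 10000 bases the distance was 2582 bases and weaker minus stronger summits 1.70 percentage points. These limits set the distance by construction. H3K4me3 scores of at least 5 gave a distance of 1781.5 bases and a balance of 45.9%. H3K4me3 scores above the median of their list gave 349 pairs, 2084.5 bases, a balance of 71.2%, the same stronger side in 76.5%, H3K27me3 in both lines in 5.73%, paired minus solitary −5.84 and weaker minus stronger 2.72 percentage points. With percentile ranks in place of scores the balance was 56.1%. In pairs with a balance of at most 80% in both lines the side was the same in 93.2%. H3K27me3 within 500 bases was near 17.1% of pairs in both lines, and within 2000 bases 24.3%, with paired minus solitary at 3.27. H3K27me3 above its median score was near 13.7%, with paired minus solitary at 1.45 and 32.4% between in close pairs. The cause of these moves was not tested, except that a score filter leaves fewer summits.

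With line A or line B left out, pairs numbered 2271 to 2306, with a distance of 1476 to 1648 bases, a balance of 35.7 to 39.1%, H3K27me3 near either summit in the line that is left in 27.6 to 30.3%, paired minus solitary at 0.15 to 3.20, weaker minus stronger at −1.41 to 0.65 and 35.5 to 37.3% between in close pairs. No test, paired or unpaired, was made, with 1 list per mark and line. Distances, sides and H3K27me3 near the stronger or weaker summit alone were compared pair by pair as descriptions. The marks were compared within each line, and the values of the lines given side by side. Depth is unknown, and its part in which weak second summits were called was not tested.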
